A study of Mus musculus with 4 samples.

Results

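The p200 family of interferon-inducible DNA sensors was read in bone marrow-derived macrophages (BMDMs) of WT mice and of *lncLy6c* knockout (LNCKO) mice, with and without butyrate. Members were the rows of the deposited expression table with the symbols *Ifi203*, *Ifi204*, *Ifi205*, *Ifi206*, *Ifi207*, *Ifi208*, *Ifi209*, *Ifi211*, *Ifi213* and *Aim2*, and all 10 were found among 16375 listed genes. There were 4 groups of 1 RNA library each, namely both genotypes as control cells, which received no butyrate, and as butyrate cells, which received 500 µM for 24 h. Where 4 values of a gene are listed without names, their order is WT control, then WT butyrate, then LNCKO control, then LNCKO butyrate. According to the study's methods, BMDMs were bone marrow cells differentiated with macrophage colony-stimulating factor. WT mice were C57BL/6, and the mice lacking *lncLy6c*, a long noncoding RNA regulated by butyrate, had a C57BL/6J background. The labels give neither the age nor the number of mice behind a library. The knockout is of the whole animal, so each cell type in an LNCKO culture carried it. The targeted transcript was not analysed here, and the library names of both LNCKO samples do not spell their condition, so each LNCKO value rests on the sample titles. Since a group is 1 library, no difference was checked against replicates and no p-value is given. Intervals cover counting error only.

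Proteins of the p200 family (also called HIN-200 or PYHIN proteins) mostly join a pyrin domain, which binds other pyrin domains, to a HIN domain, which binds double-stranded DNA. AIM2 senses DNA in the cytosol and recruits the adaptor ASC (*Pycard*) and caspase-1 into an inflammasome, and IFI204, a mouse relative of human IFI16, is known as a DNA sensor upstream of STING. The genes sit side by side in a cluster that expanded by duplication in mice, and many of them are induced by interferon, whose signal reaches interferon-stimulated response elements (ISREs) near start sites. Macrophages are among the cells in which these genes are well known.

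The 250 bases upstream of the RefSeq start site (build GRCm38.p6) are shown first for *Ifi208*, the member that differed between the genotypes, and for *Ifi206*, whose upstream sequence was most like it. The *Ifi208* stretch is chr1:173673415-173673664 on the + strand and the *Ifi206* stretch is chr1:173491319-173491568 on the - strand, each written 5′ to 3′ along its gene. Capitals mark an ISRE core, searched on both strands as GAAA, any 2 bases, and GAAA.
Ifi208: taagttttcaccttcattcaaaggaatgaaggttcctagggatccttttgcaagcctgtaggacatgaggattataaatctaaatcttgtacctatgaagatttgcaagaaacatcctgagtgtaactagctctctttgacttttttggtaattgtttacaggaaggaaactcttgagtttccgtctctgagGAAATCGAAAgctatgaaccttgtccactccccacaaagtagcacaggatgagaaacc
Ifi206: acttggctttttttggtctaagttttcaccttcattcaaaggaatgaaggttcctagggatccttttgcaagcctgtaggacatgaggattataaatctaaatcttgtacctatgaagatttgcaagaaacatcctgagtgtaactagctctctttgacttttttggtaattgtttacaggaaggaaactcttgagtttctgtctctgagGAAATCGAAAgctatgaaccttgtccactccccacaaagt
A local alignment of these stretches matched 231 of 232 columns (99.6%). The upstream stretch of *Ifi213* matched that of *Ifi208* in 233 of 235 columns (99.1%) and that of *Ifi206* in 214 of 217 columns (98.6%). The surroundings of the core, with up to 25 bases on each side, are shown for *Ifi213* as the other near copy and for *Ifi207*, *Ifi211* and *Ifi205* as members with a core in different surroundings. They lie at chr1:173599311-173599370, chr1:173741816-173741875, chr1:173913049-173913108 and chr1:174031855-174031914, all on the - strand.
Ifi213: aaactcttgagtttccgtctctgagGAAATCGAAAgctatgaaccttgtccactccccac
Ifi207: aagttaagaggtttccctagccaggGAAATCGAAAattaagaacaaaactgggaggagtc
Ifi211: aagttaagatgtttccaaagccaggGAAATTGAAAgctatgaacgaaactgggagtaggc
Ifi205: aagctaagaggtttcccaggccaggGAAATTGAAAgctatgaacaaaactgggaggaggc

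Of the 10 members, 9 had a promoter window in the RefSeq table, running from 250 bases before to 50 bases after the start site, and *Ifi204* was the member not matched. An ISRE core was present in the windows of 7 of these 9 members (*Ifi203*, *Ifi205*, *Ifi206*, *Ifi207*, *Ifi208*, *Ifi211* and *Ifi213*), against 3.99% of 27025 genes with a window. The form GAAATCGAAA, singled out because the members held it most often, was found in 5 members (*Ifi203*, *Ifi206*, *Ifi207*, *Ifi208* and *Ifi213*) and in 16 windows in all. The core began 58 bases upstream of the *Ifi208* start, 40 bases upstream of *Ifi206*, 73 bases upstream of *Ifi213* and 134 bases upstream of *Ifi205*. The other motif searched, the interferon-gamma activated site TTCNNNGAA on both strands, was found in 0 of the 9 members and in 9.55% of all genes with a window. *Ifi208* therefore had the same core, in almost the same surroundings, as *Ifi206* and *Ifi213*, whose levels are set beside it next. A match of letters is a description of the sequence and no measurement of binding.

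Levels are FPKM as the authors deposited them (fragments per kilobase and per 1000000 fragments of the library), with the whole genomic span as the length of a gene. Converted back, the libraries held from 53363944 to 65521713 fragments, and each member had from 3822 to 92611 fragments in a library. Averaged over the libraries, FPKM was 1 or more for 6809 genes, among them 9 of 10 members, and *Aim2* stayed under it. *Ifi208* was over 1 in every library, so it did not pass the filter through the LNCKO libraries alone. Differences are given on the log2(FPKM + 0.1) scale, and a gene is said to pass 1.5-fold when its FPKM + 0.1 differed at least that much between 2 libraries. The 10 macrophage identity markers were all present, with summed FPKM of 2762, 3738, 2388 and 1674. Markers of B cells (summed FPKM 164 to 216) and of neutrophils and their precursors (2243 to 3147) were present in every library too. In such bulk RNA, fewer cells of a type and less RNA per cell cannot be told apart. Across 4 Y-linked genes, the WT libraries held 16 to 85 fragments per gene and the LNCKO libraries 2051 to 7764, so genotype and the sex of the donors cannot be told apart.

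*Ifi208* was the member that differed between the genotypes. Among WT cells its FPKM was 2.74 without butyrate (95% exact Poisson interval 2.66 to 2.83) and 2.73 with it (2.64 to 2.81). Among LNCKO cells it was 8.72 without butyrate (8.56 to 8.88) and 10.5 with it (10.4 to 10.7). Both LNCKO libraries were high and both WT libraries low, and the WT libraries were nearly level. The fragments behind these values were 3822, 3992, 11500 and 17056. LNCKO exceeded WT by 1.63 on the log2 scale without butyrate, as a plain ratio 3.18 (95% exact binomial interval 3.07 to 3.30), and by 1.91 with butyrate, as a plain ratio 3.86 (3.73 to 4.00). Ranked by log2 difference among the 6809 genes, *Ifi208* stood at place 11 from the top without butyrate and at place 10 with it. These comparisons use different libraries, although each holds 1 culture of a genotype. It was the member called at least 1.5-fold higher in LNCKO, 1 of 10 in each comparison, where 0.617% of genes were that much higher without butyrate and 1.56% with it. Across the libraries the highest FPKM of *Ifi208* was 3.86 times the lowest, and for each other member this ratio lay between 1.135 and 1.19.

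**Figure D1:**
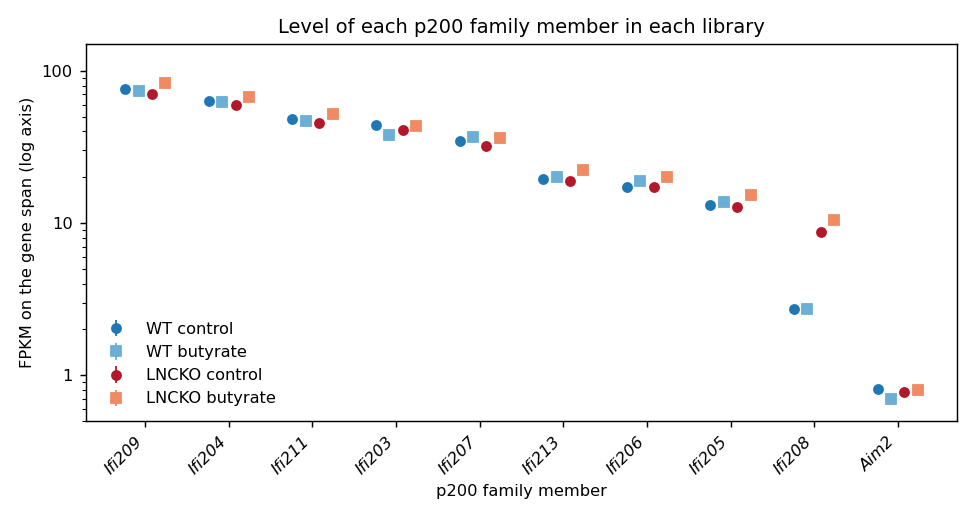
FPKM of the 10 p200 members (log axis) in the 4 libraries, 1 point per library with blue for WT and red for LNCKO, with 95% counting intervals that are mostly smaller than the points. *Ifi208* has 2 low WT points near 2.7 and 2 higher LNCKO points at 8.72 and 10.5, while the points of every other member lie close together.

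The gene lies on the + strand of chromosome 1 from 173673675 to 173698395 (GRCm38, GENCODE M21), with 5258 bases of exons, and its exons overlap no other annotated exon on either strand. *Ifi209* lies upstream of it on the same strand and *Ifi207* downstream on the opposite strand. Neither neighbour shared its difference. LNCKO minus WT on the log2 scale was -0.12 without butyrate and 0.18 with it for *Ifi209*, and -0.11 and -0.03 for *Ifi207*. The 13 p200 genes in the file span 681 kb of chromosome 1, and of the 11 other listed genes within 500 kb of the cluster, 0 reached a mean FPKM of 1 (the highest mean was 0.486, for the olfactory receptor gene *Or10aa1*). Among the listed genes of this stretch, those that reached a mean FPKM of 1 thus all belonged to the family. *Aim2* (mean 0.768) and *Ifi202b* (mean 0.00459) of the family did not reach it.

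**Figure D2:**
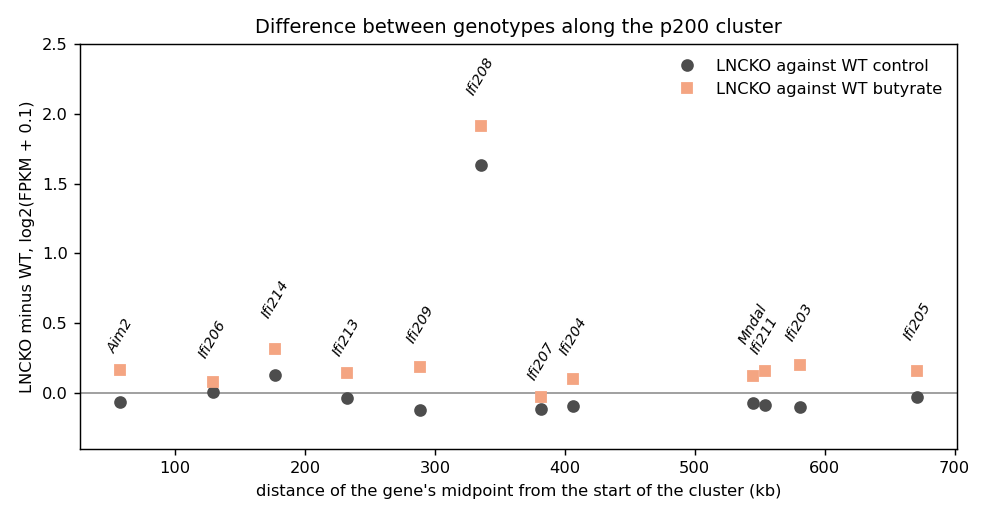
Difference between LNCKO and WT on the log2(FPKM + 0.1) scale (vertical axis) against the distance of each gene's midpoint from the start of the p200 cluster in kb (horizontal axis), without butyrate (circles) and with butyrate (squares), for the members, *Ifi214* and *Mndal*. *Ifi208* stands at 1.63 and 1.91, and the genes on each side of it lie between -0.12 and 0.31.

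The near copies of *Ifi208* were read closely, since reads from identical stretches can be assigned to the wrong gene. Of the 5255 different windows of 100 bases in *Ifi208* transcripts, 311 (5.92%) also occur in another gene, with 169 in *Ifi213* and 163 in *Ifi206*. FPKM of *Ifi213* was 19.4, 20.2, 18.9 and 22.3, and that of *Ifi206* was 17.2, 18.9, 17.2 and 19.96. Between the controls, *Ifi213* in LNCKO was at 0.974 of its WT level (0.960 to 0.989, counting error only) and *Ifi206* at 1.00 (0.984 to 1.02). Summed, *Ifi213* and *Ifi206* made up 1026 of every 1000000 fragments in WT and 1011 in LNCKO without butyrate, a ratio of 0.985, while *Ifi208* went from 67.8 to 216. With butyrate their sum was 1092 in WT and 1185 in LNCKO.

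Beside *Ifi208*, other genes also differed between the genotypes. In total 10 of 6809 genes were at least 2-fold higher in LNCKO in both comparisons. Since they are so few they are named, although chosen after their values were seen. They were *Ifi208*, the hemoglobin genes *Hbb-bt*, *Hbb-b1*, *Hba-a2* and *Hba-a1*, the Y-linked genes *Ddx3y* and *Eif2s3y*, *Cd5l*, *Arg1* and ENSMUSG00000110104. Of these, *Hbb-bt*, *Ddx3y*, *Eif2s3y* and ENSMUSG00000110104 had an FPKM under 1 in both WT libraries. They therefore passed the filter only through the LNCKO libraries, where they were high. By the distance between 4-library profiles, centred on their means, the genes most like *Ifi208* were *Cd5l*, which encodes a protein secreted by macrophages, at 0.31 log2 units, and *Arg1*, which encodes arginase 1, at 0.43. *Cd5l* had FPKM of 2.37, 2.24, 7.01 and 6.85, and *Arg1* had 3.33, 2.74, 7.05 and 11.6. Both were low in the WT libraries and high in the LNCKO libraries. These genes were chosen for their likeness, which is a description over 4 libraries.

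Markers of other cells were set beside *Ifi208*. Summed over the 6 erythroid markers listed, of which 3 passed the filter, FPKM was 5.99 and 6.68 in the WT libraries without and with butyrate, and 22.6 and 64.6 in the LNCKO libraries. The erythroid markers and *Ifi208* were thus high in the same libraries, with *Klf1*, which defines the lineage, at 0 in LNCKO butyrate. The stromal sum went the other way, at 11.1, 9.64, 4.05 and 6.98, mainly through *Col1a1* and *Col1a2*. Not all stromal markers did so. *Pecam1* had 1.14, 1.10, 1.31 and 1.27, and *Col3a1* had 0.495, 0.603, 0.277 and 0.707, highest in LNCKO butyrate. B cell markers had 209, 164, 213 and 216. Dendritic cell markers had 190, 191, 177 and 211, nearly all of it from the interferon-stimulated *Bst2* (181, 184, 168 and 203). *Siglech* of the same list had 7.66, 5.57, 6.98 and 6.66. T and NK cell markers had 14.7, 19.5, 17.5 and 16.5. The last sum was mostly *Nkg7* (FPKM 10.5 to 15.6), and *Gzma* was at 0 in WT butyrate. The T cell receptor subunit *Cd3d* had an FPKM of 0.0894, 0.113, 0.260 and 0.294. It was higher in both LNCKO libraries, as were *Cd3e*, *Lck*, *Cd8a*, *Gzma* and *Klrb1c*. *Cd4*, at a higher FPKM than any of these, was lower in both LNCKO libraries. *Nkg7* was higher in LNCKO between controls and lower between butyrate libraries, and *Ncr1* went the opposite way. Markers of neutrophils and their precursors summed to 2691, 3147, 2331 and 2243. This sum, mostly *S100a8* and *S100a9*, was lower in both LNCKO libraries, but its markers were mixed. Between controls 7 were lower and 3 higher in LNCKO (*Mpo*, *Elane* and *Prtn3*). Between butyrate libraries 7 were lower and 3 higher (*Ngp*, *Camp* and *Prtn3*). *Ly6g*, *Retnlg* and *S100a9* passed 1.5-fold lower in LNCKO butyrate than in WT butyrate. In LNCKO butyrate the macrophage sum was lowest, mainly through *Lyz2*, which had an FPKM of 870 there against 1609 to 2871 elsewhere. The part that any of these cells had in the *Ifi208* difference was not tested.

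The other 9 members were nearly level between the control cultures of the genotypes. The known DNA sensor of the STING pathway, *Ifi204*, had an FPKM of 63.3, 62.8, 59.4 and 67.4. The inflammasome sensor *Aim2* had 0.811, 0.699, 0.770 and 0.794. *Ifi204* was lowest in LNCKO control and highest in LNCKO butyrate, whereas *Aim2* was highest in WT control. Among the most abundant members, *Ifi209* had 76.4, 73.1, 70.1 and 83.1, *Ifi211* had 48.0, 46.9, 45.3 and 52.4, and *Ifi203* had 43.9, 37.7, 40.9 and 43.3. *Ifi209* and *Ifi211* followed *Ifi204*, and *Ifi203* stood apart with its lowest value in WT butyrate. *Ifi207* had 34.7, 36.7, 32.1 and 36.0, and *Ifi205* had 13.1, 13.6, 12.8 and 15.2. LNCKO control was the lowest library for 6 of 10 members and LNCKO butyrate the highest for 7 of 10. The share of all genes with these libraries lowest or highest was not computed, so these counts are a description of the members only.

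Between the controls, the median difference of the 10 members (LNCKO minus WT) was -0.07 on the log2 scale, against 0.02 for all 6809 genes. Of the members, 8 were lower in LNCKO control, where 43.3% of all genes were, and the members higher were *Ifi208* and, by 0.00, *Ifi206*. Without *Ifi208* the differences ran from -0.12 for *Ifi209* to 0.00 for *Ifi206*. With butyrate the median was 0.16 against 0.06 for all genes, and 9 of 10 members were higher in LNCKO, where 64.2% of all genes were. *Ifi207*, at -0.03, was the exception. In plain ratios the members other than *Ifi208* lay between 0.982 for *Ifi207* and 1.15 for *Ifi203* in this comparison. Other scalings changed these counts. Between controls, 9 members were lower in LNCKO with the libraries scaled by their median ratio, where the median of all genes was 0.00. Between butyrate libraries, 10 were higher with FPKM rescaled to 1000000 per library, where the median of all genes was 0.10.

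Whether butyrate moved the family was asked in each genotype. In WT macrophages the members were almost level. Their median difference (butyrate minus control) was -0.01, against -0.05 for all genes. Of the members, 4 were higher (36.9% of all genes were higher), and 0 of 10 passed 1.5-fold, which 2.35% of all genes did. The differences ran from -0.22 for *Ifi203*, a ratio of 0.860 (95% exact binomial interval 0.850 to 0.871), to 0.14 for *Ifi206*, a ratio of 1.10 (1.08 to 1.12). *Aim2* had a ratio of 0.862 (0.828 to 0.896). *Ifi203* and *Aim2* were the members lowest in WT butyrate relative to WT control, and *Ifi208*, with a ratio of 0.995 (0.952 to 1.04), was level within its counting interval. With the libraries scaled by their median ratio, 7 members were higher with butyrate in WT, and the median of all genes was -0.01.

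In LNCKO macrophages every member was higher with butyrate. The median difference was 0.21, against -0.02 for all genes, 10 of 10 members were higher (42.2% of all genes were higher) and 0 of 10 passed 1.5-fold, which 0.749% of all genes did. *Ifi208* had the largest of these differences, 0.27, a ratio of 1.21 (1.18 to 1.24), followed by *Ifi205* with 0.25, a ratio of 1.19 (1.17 to 1.22), and *Ifi209* and *Ifi213* with 0.24 each. *Aim2* had the smallest, 0.04, and its ratio of 1.03 (0.993 to 1.07) was within counting error of level. From 71.5% to 97.4% of all genes lay below the members in this comparison. The differences were small and in 1 direction, and they share the LNCKO control library with the comparison of the controls, in which 8 members were lower.

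**Figure D3:**
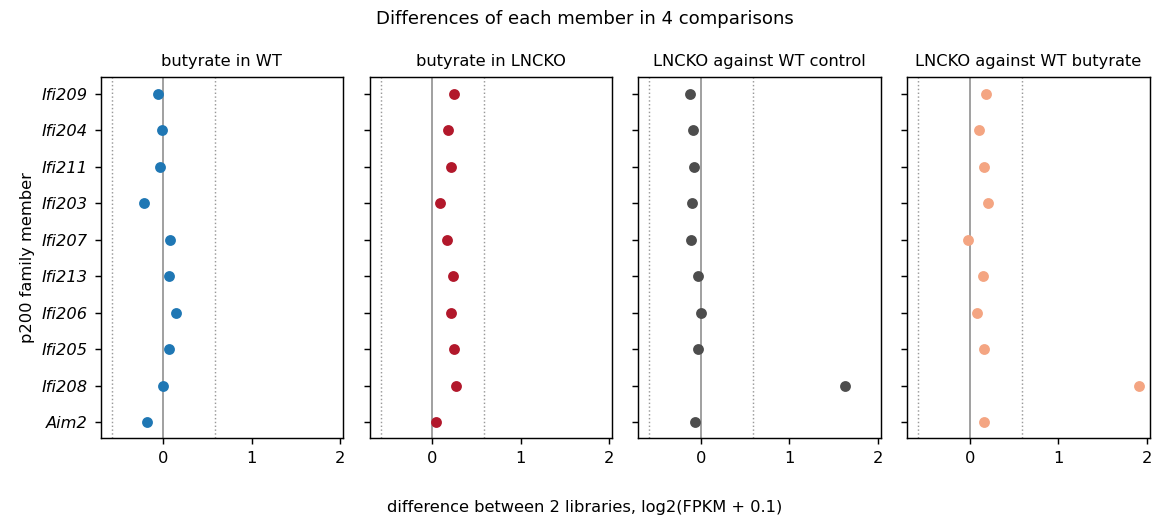
Differences of the 10 members on the log2(FPKM + 0.1) scale in 4 comparisons of 2 libraries each, with the solid line at 0 and dotted lines at 1.5-fold. With butyrate the members lie from -0.22 to 0.14 in WT and from 0.04 to 0.27 in LNCKO, and *Ifi208* is the only point past the dotted lines, in the comparisons of LNCKO with WT.

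The butyrate differences in WT and LNCKO were then set against each other. The WT difference minus the LNCKO difference was below 0 for 10 of 10 members, where 58.8% of all genes were below 0, and its median was -0.21 against -0.04. It ran from -0.31 for *Ifi209* to -0.07 for *Ifi206*, and 0 of 10 members passed 1.5-fold, which 2.91% of all genes did. All 4 libraries enter this value, so it holds nothing beyond the comparisons above. As a share of the library, the 10 members together took 0.640% and 0.628% of fragments in WT without and with butyrate, and 0.618% and 0.708% in LNCKO. Without *Ifi208* the shares were 0.634%, 0.622%, 0.596% and 0.681%. The LNCKO butyrate library was highest either way, so its rank did not rest on *Ifi208*.

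Levels of different genes were compared per kilobase of merged exons, since FPKM on the span understates genes with long introns if fragments were counted on exons. Whether they were was not tested, and fragments counted in introns would make the exonic scale overstate genes with long introns. *Aim2*, for example, has 3501 exonic bases in a span of 115162 bases. On this scale, in fragments per kilobase of exon per 1000000 fragments, the mean over the libraries was 451 for *Ifi211*, 363 for *Ifi209*, 349 for *Ifi204*, 187 for *Ifi207*, 138 for *Ifi203*, 135 for *Ifi206*, 97.3 for *Ifi213*, 64.8 for *Ifi205*, 29.1 for *Ifi208* and 25.3 for *Aim2*. Neighbours in this order whose ranges over the libraries overlapped, and which are therefore not separated, were *Ifi209* and *Ifi204*, *Ifi203* and *Ifi206*, and *Ifi208* and *Aim2*. *Ifi208* was below *Aim2* in the WT libraries (12.9 against 26.7 without butyrate and 12.8 against 23.0 with it) and above it in the LNCKO libraries (41.0 against 25.3 and 49.5 against 26.1). The place of *Ifi211* is uncertain, because 56.9% of its windows of 100 bases also occur in other genes, mainly *Ifi205* and *Ifi204*. For the rest, the shared part was 16.9% for *Ifi209*, 15.0% for *Ifi205*, 13.1% for *Ifi206*, 10.7% for *Ifi204* and under 6% for the others, with 0 shared windows in *Aim2*.

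**Figure D4:**
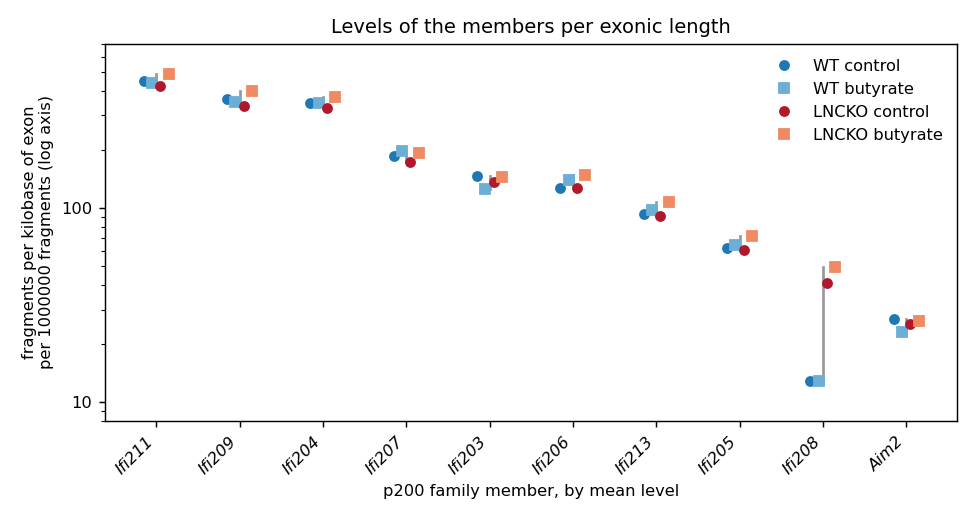
Levels of the members in fragments per kilobase of exon per 1000000 fragments (log axis), ordered by the mean over the 4 libraries, with a grey line for the range and a point for each library. *Ifi208* has the widest range, from 12.8 to 49.5, and crosses *Aim2*, which lies from 23.0 to 26.7.

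The remaining p200 genes of the file, which are no members, were read for comparison. *Ifi214*, which shares 94.8% of aligned upstream bases with *Ifi209*, had FPKM of 4.76, 4.71, 5.22 and 5.88. It was higher in both LNCKO libraries, with log2 differences of 0.13 without butyrate and 0.31 with it, far below those of *Ifi208*. *Mndal*, whose exons overlap those of *Ifi203* by 37 bases on the same strand, had 25.2, 23.6, 24.0 and 25.7. *Ifi202b*, which is known to be poorly expressed in C57BL/6 mice, had 3, 8, 4 and 7 fragments, too few for a comparison.

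Lists of genes around the family were described in the same way. For all 6809 genes, medians were -0.05 with butyrate in WT, -0.02 with butyrate in LNCKO, 0.02 between controls and 0.06 between butyrate libraries. In that order, 2.35%, 0.749%, 1.09% and 2.85% of all genes passed 1.5-fold. Of the partners of AIM2, 13 of 14 inflammasome genes passed the filter, with median differences of -0.05 with butyrate in WT, 0.05 with butyrate in LNCKO, -0.04 between controls (LNCKO minus WT) and 0.03 between butyrate libraries, and 0 passed 1.5-fold in these comparisons. *Pycard*, the adaptor ASC, had FPKM of 17.8, 17.8, 18.1 and 17.7, and *Casp1*, caspase-1, had 12.2, 12.6, 13.0 and 12.1. Both were nearly level across the libraries. *Aim2* itself was lowest in WT butyrate, with a ratio of 0.862 (0.828 to 0.896, counting error only) to WT control. The cytokine *Il1b*, which caspase-1 activates, had 12.4, 16.1, 15.5 and 16.9, lowest in WT control.

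Of the DNA sensing genes, 18 of 24 passed, with medians of -0.03, 0.03, -0.02 and 0.07 in the same order, and 0 passed 1.5-fold. *Sting1*, the adaptor downstream of cGAS and IFI204, had FPKM of 20.6, 16.7, 19.6 and 19.3, and *Cgas* had 3.93, 3.63, 4.00 and 4.11. Both were lowest in WT butyrate, like *Ifi203* and *Aim2*. *Trex1*, a nuclease that removes cytosolic DNA, had 75.0, 72.9, 60.1 and 77.2. It was lowest in LNCKO control, as 6 of the members were, and the share of all genes lowest there was not computed.

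Genes of interferon receptor signalling all passed (16 of 16), with medians of 0.08, 0.01, -0.02 and -0.04 and 0 past 1.5-fold. *Irf9*, which encodes a factor that binds the ISRE, had FPKM of 27.1, 33.8, 27.5 and 28.8. It was highest in WT butyrate, a library in which no member but *Ifi207* was at its highest. Of 23 type I interferon-stimulated genes, all passed the filter. Their medians were 0.15 with butyrate in WT, 0.12 with butyrate in LNCKO, -0.09 between controls and -0.08 between butyrate libraries, with 0 past 1.5-fold. With butyrate, 19 of 23 were higher in WT and 22 of 23 in LNCKO, where 36.9% and 42.2% of all genes were. Between controls, 21 of 23 were lower in LNCKO, where 43.3% of all genes were. Between butyrate libraries, 17 of 23 were lower in LNCKO, where 2441 of 6809 genes were. The p200 medians in these comparisons were -0.01, 0.21, -0.07 and 0.16, and the difference between the lists was not tested. *Irf7*, an interferon-induced regulator that is in both the DNA sensing and the interferon-stimulated lists, had 387, 381, 356 and 411. It was lowest in LNCKO control and highest in LNCKO butyrate, as were 5 of the 10 members. The share of all genes with that pattern was not computed. *Cmpk2* had 42.6, 63.8, 41.8 and 48.8, and was highest in WT butyrate. The interferon-inducible GTPases (10 of 11 passed) had medians of 0.10, 0.08, -0.03 and -0.01, with 0 past 1.5-fold.

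**Figure D5:**
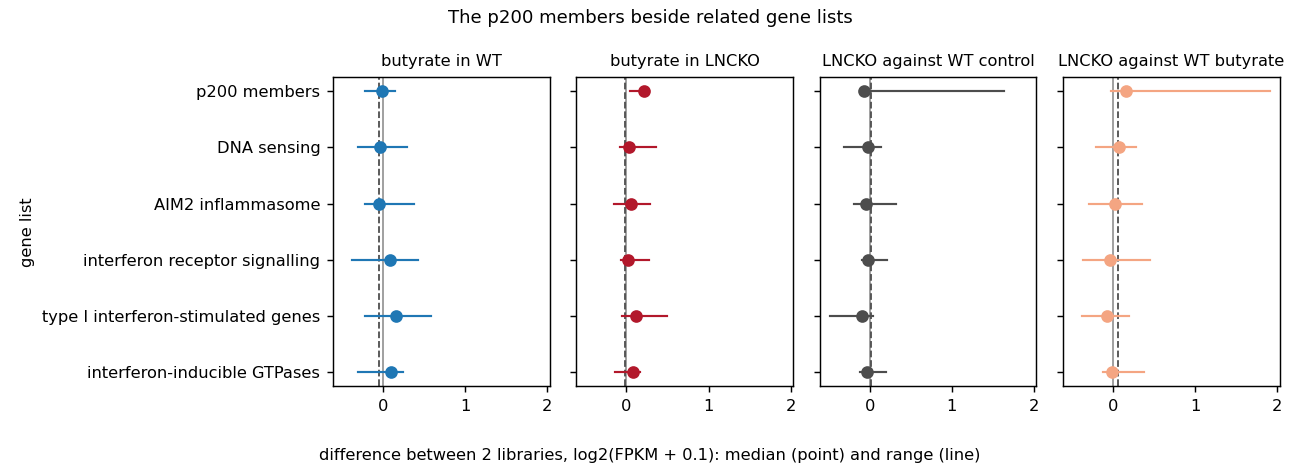
Median (point) and range (line) of the log2(FPKM + 0.1) differences in 4 comparisons for the 10 p200 members and for 5 lists of related genes that passed the filter, with the solid line at 0 and the dashed line at the median of all 6809 genes. The p200 median is 0.21 with butyrate in LNCKO and -0.01 in WT, and the long p200 ranges in the comparisons of LNCKO with WT end at *Ifi208*.

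The genes outside the family whose 4-library profile was most like the median profile of the members, by Euclidean distance after centring, were *Pycrl* (0.02 log2 units), *Fiz1* (0.02), *Npc2* (0.03), *Ptpn18* (0.03) and *Ppp1r11* (0.04). *Npc2*, which encodes a cholesterol-binding protein of lysosomes, had FPKM of 92.7, 91.6, 85.7 and 99.9. Like 5 of the 10 members, it was lowest in LNCKO control and highest in LNCKO butyrate. None of these 5 genes is an interferon-stimulated gene of the lists used here, and a likeness over 4 libraries is a description only.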

How the data were processed

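RNA sequencing of BMDMs gave 4 libraries, 1 per group. The authors deposited FPKM values per gene and no counts. The submitters' processing notes name STAR 2.5.0c and HTSeq 0.6.0 among their tools, and GRCm38 as the build. The methods describe MGISEQ sequencing of 100-base paired reads, whereas the labels name Illumina protocols, and strand-specific counting is not stated in the sources used here. The total of each library was found as the number for which FPKM times span came out as whole fragments most often, with gene spans of GENCODE M21: at least 98.5% of 16342 matched genes came out whole within 0.01 fragments. *Mndal* did not, so only its FPKM is given. Fragments gave the depth, exact 95% Poisson intervals for levels and exact conditional binomial intervals for ratios. Paired reads without molecular identifiers are not independent molecules, so intervals cover counting error only.

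Differences were computed as log2(FPKM + 0.1) between 2 libraries. Lists were described by counts and medians beside all genes whose FPKM averaged 1 or more. The members and lists were chosen with earlier results of these data known. Named genes were the members, the genes of the lists and cell type markers, genes within 500 kb of the cluster, and the 5 genes nearest to the members' median profile. The genes like *Ifi208*, those 2-fold higher in both comparisons and the sum of *Ifi213* and *Ifi206* were added after its values were seen. Upstream stretches were aligned locally with Biopython 1.88 (match 1, mismatch -1, gap opening -3, gap extension -1). Values of some single genes of the lists are not reported here. Protein identity between members was not computed, and sequences came from RefSeq promoter windows on GRCm38.p6 and GENCODE transcripts. Alternatives were a pseudocount of 1 or none, libraries scaled by their median ratio, FPKM rescaled to 1000000 per library, exonic length, and a mean FPKM of at least 5 or no filter. A median, or a difference between butyrate responses, that moved by 0.1 or more on the log2 scale, a member's difference between libraries that moved by one side of its 95% counting interval or more, or a count that moved by over 1.5 times was taken as moved. The steps were tested on simulated data. Python 3.11.15, numpy 2.4.6, pandas 2.3.3, scipy 1.17.1 and matplotlib 3.10.9 were used.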

Additional observations from a re-analysis of the deposited data

Results flagged for a closer look

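For 3 members the butyrate difference had opposite directions in the genotypes beyond counting error. *Ifi203* was lower with butyrate in WT (-0.22 on the log2 scale) and higher in LNCKO (0.08), so the WT value minus the LNCKO value was -0.30. *Ifi209* was at -0.06 in WT and 0.24 in LNCKO, a value of -0.31 for WT minus LNCKO. *Ifi211* was at -0.03 and 0.21, a value of -0.24. With libraries scaled by their median ratio, *Ifi211* was at 0.02 in WT and 0.23 in LNCKO, both in the same direction, and *Ifi209* was at -0.01 and 0.26. Every group is 1 library, and whether the genotypes differ in these responses was not tested.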

How the results depend on the processing

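No paired analysis was possible because each group holds 1 library, and for the same reason no library could be left out. All 35 alternatives of the family medians stayed within 0.1 on the log2 scale and all 35 counts of members past 1.5-fold stayed the same. Of 345 alternatives of single members, 293 moved by less than the limit, 52 moved by more and 0 of the values past 1.5-fold turned direction. The limit was one side of a value's 95% counting interval, or 0.1 for a difference between butyrate responses. The largest shift was 0.28, for *Ifi208* between the butyrate libraries with a pseudocount of 1. The *Ifi208* difference ranged from 1.38 with a pseudocount of 1 to 1.68 rescaled to 1000000 per library between controls, and from 1.63 to 1.99 under the same settings between butyrate libraries. Values near 0 turned with the scaling: scaled by the median ratio, 7 members were higher and 3 lower with butyrate in WT, in place of 4 and 6. Rescaled to 1000000 per library, 10 of 10 members were higher in LNCKO than WT with butyrate. The count of all genes past 1.5-fold moved by over 1.5 times in 25 of 35 alternatives. As a share of the genes kept, it ranged with butyrate in WT from 1.25% with a pseudocount of 1 to 7.20% rescaled.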
